A study of Sus scrofa with 4 samples.

Results

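The CCT chaperonin subunits are the 8 genes TCP1, CCT2, CCT3, CCT4, CCT5, CCT6A, CCT7 and CCT8, and they were taken by symbol from a deposited table of 20491 pig (Sus scrofa) genes. All 8 were found, and all 8 passed the filter on low counts. The data are RNA sequencing of follicle granulosa cells, which surround and nourish the oocyte. The groups have 2 libraries each, namely siYTHDF2 cells, transfected to interfere with YTHDF2, and control cells, which received a negative control transfection. All 4 libraries are thus from transfected cells. The labels give no genotype, age, siRNA, time after transfection or number of animals, and name no BDNF treatment. Nothing says that the libraries came from separate cultures, and p-values here therefore reflect no more than the spread among libraries, possibly a technical one. The title places the series in the question of how the growth factor BDNF makes granulosa cells divide and what YTHDF2, a reader of N6-methyladenosine that promotes the decay of bound mRNA, has to do with it.

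CCT, also called TRiC, is a cytosolic ATP-driven folding machine built of stacked rings in which every paralogous subunit holds a fixed place. It encloses newly made proteins that fold poorly on their own, above all actins and tubulins, and several proteins with WD repeats. Prefoldin hands unfolded actin and tubulin to the ring, phosducin-like proteins assist or modulate it, and tubulin cofactors take over tubulin after its release. Since a ring needs every subunit, the levels of the subunit transcripts relative to each other are of interest beside their change.

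The total count was 47209177 and 54203550 in the siYTHDF2 libraries and 53331003 and 54841851 in the control libraries. The targeted gene YTHDF2 stood at 23.4 ± 0.270 CPM in siYTHDF2 cells and 65.8 ± 5.23 CPM in control cells (SD, n = 2 each, log2 fold change -1.49, SE 0.09, edgeR adjusted p = 1.49e-05), where CPM stands for counts scaled by TMM to a common library size. Of 12 granulosa markers, FSHR, the follicle-stimulating hormone receptor, lay at 10.2 to 11.5 CPM, whereas CYP19A1, the aromatase of mature granulosa cells, had at most 11 counts in any library. The 12 summed to 2442 to 2568 CPM in siYTHDF2 cells and 2722 to 2887 CPM in control cells, where GJA1 alone had 2106 to 2246 and 2386 to 2515 CPM. INHBB was the 1 of 11 tested that edgeR called lower (log2 fold change -0.69, adjusted p = 0.00213), and 0 were called higher. Markers of theca and stroma include the collagen COL1A1 and the smooth muscle actin ACTA2. They summed to 8482 to 8750 CPM in siYTHDF2 cells and 17507 to 17832 CPM in control cells. ACTA2 alone had 6286 to 6639 CPM in siYTHDF2 cells and 12147 to 12801 CPM in control cells. Of the 9 markers of this list tested, edgeR called 7 lower and 1, DES, higher at an adjusted p under 0.05. Of all tested genes, 10.6% were called lower and 9.05% higher. The 4 leukocyte markers in the table summed to 5.08 to 6.28 CPM in siYTHDF2 cells and 7.06 to 8.14 CPM in control cells, with PTPRC at no more than 7 counts and CD14 at 165 to 199 counts in siYTHDF2 cells and 284 to 291 counts in control cells, and the retina markers, tested because the protocol text speaks of retinas, summed to at most 0.666 CPM. The part of these markers in the results on CCT was not tested, and in bulk RNA fewer cells of a type and less RNA per cell cannot be told apart.

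All 8 CCT subunit genes were higher in siYTHDF2 cells, by small amounts. Their log2 fold changes ran between 0.22 for CCT3 and 0.50 for CCT5, with a median of 0.29, against a median of 0.00069 over all 15552 genes tested. All 8 passed edgeR's quasi-likelihood test at an adjusted p under 0.05, and none was lower. Of all tested genes, 9.05% were called higher and 10.6% lower. Abundant genes are called more often, and among the 234 genes with a mean of 311 to 485 CPM, the range spanned by the subunits and including them, 19.7% were called higher. In each of the 8 genes both siYTHDF2 libraries lay above both control libraries, which held for 30.1% of all tested genes. The joint level of the 8 was 3660 and 3488 summed CPM in the siYTHDF2 libraries, against 2774 and 3030 in the control libraries.

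**Figure D1:**
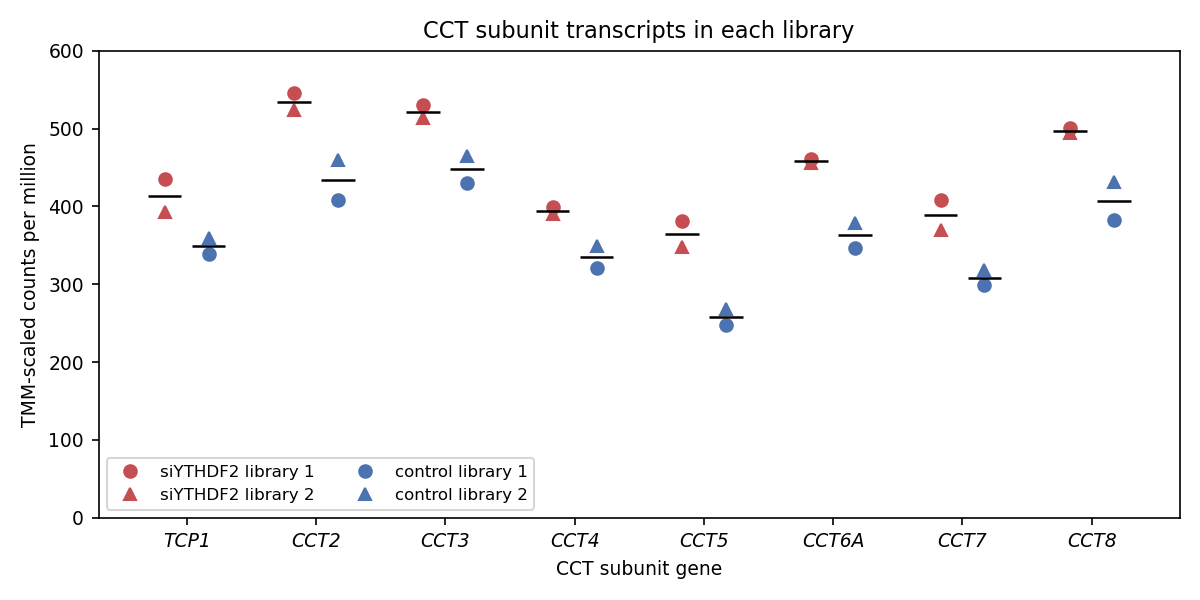
TMM-scaled CPM of the 8 CCT subunit genes in each of the 4 libraries, siYTHDF2 in red and control in blue, with the group mean as a black line. In each gene both siYTHDF2 libraries lie above both control libraries, and within the control group library 2 is above library 1 in all 8 genes.

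The subunits are described by their use of ATP. In yeast, the counterparts of CCT5, CCT7, CCT2, TCP1 and CCT4 bind ATP more readily than those of CCT6A, CCT8 and CCT3. Positions are as in the deposited table, and none of the sources used here gives its genome build.

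CCT5, the epsilon subunit, had the largest change of the 8. In human the protein can form rings by itself. The gene, ENSSSCG00000024126, lies on the minus strand of chromosome 16 from 72208012 to 72223114. Its CPM was 381 and 347 in the siYTHDF2 libraries and 247 and 268 in the control libraries. The groups were clearly apart, and the lowest of the 4 ratios of a siYTHDF2 to a control library was 1.29-fold. The log2 fold change was 0.50 (SE 0.07, edgeR adjusted p = 0.00177), and CCT5 was the one subunit called in all 13 alternative fits, where its log2 fold change lay between 0.42 and 0.56. Even so, 9.27% of all tested genes had a larger log2 fold change.

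CCT7, the eta subunit, lies on the minus strand of chromosome 3 from 69526534 to 69546548 (ENSSSCG00000008303). It had 408 and 369 CPM in siYTHDF2 cells and 299 and 318 CPM in control cells, a log2 fold change of 0.33 (SE 0.07, edgeR adjusted p = 0.0124). siYTHDF2 library 1 was the highest of the 4, and the call was lost without it (adjusted p = 0.0758).

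CCT2, the beta subunit, has also been described in human cells as a receptor that brings protein aggregates to autophagy. ENSSSCG00000000496 lies on the plus strand of chromosome 5 from 33858572 to 33873523. Its CPM was 545 and 524 in the siYTHDF2 libraries and 409 and 459.7 in the control libraries, a log2 fold change of 0.30 (SE 0.07, edgeR adjusted p = 0.0203). Control library 1 was the lowest, and the call was lost without it (adjusted p = 0.119) and without siYTHDF2 library 1 (adjusted p = 0.0709).

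TCP1, the alpha subunit and the founding member of the family, lies on the plus strand of chromosome 1 from 7590140 to 7601795 (ENSSSCG00000004048). It had 435 and 393 CPM in siYTHDF2 cells, against 339 and 359 CPM in control cells, a log2 fold change of 0.25 (SE 0.07, edgeR adjusted p = 0.0409). Here the nearest libraries of the 2 groups differed by only 1.09-fold. Without siYTHDF2 library 1 the log2 fold change was 0.16 and the call was lost (adjusted p = 0.292), as it was without control library 1 (adjusted p = 0.164).

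CCT4, the delta subunit, lies on the plus strand of chromosome 3 from 79924507 to 79946207 (ENSSSCG00000008377). Its CPM was 399 and 391 in siYTHDF2 cells and 321 and 349 in control cells, a log2 fold change of 0.24 (SE 0.07, edgeR adjusted p = 0.0364). The call held without control library 2 (adjusted p = 0.0255) and in none of the other fits that left out a library, with adjusted p = 0.149 without siYTHDF2 library 1, 0.0734 without siYTHDF2 library 2 and 0.208 without control library 1.

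CCT6A, the zeta subunit of most tissues, lies on the minus strand of chromosome 3 from 16843804 to 16858819 (ENSSSCG00000020808). It had 461 and 456 CPM in the siYTHDF2 libraries and 347 and 379 CPM in the control libraries. The siYTHDF2 libraries were nearly equal, with a spread of 0.806% of their mean, and the log2 fold change of 0.34 (SE 0.07, edgeR adjusted p = 0.00838) kept its call when any 1 library was left out. CCT6B, its testis counterpart in human and mouse, had between 30 and 62 counts per library and was not called (log2 fold change 0.16, SE 0.50, adjusted p = 0.873). CCT8L2, a distant CCT8-like gene, was listed at 0 in both siYTHDF2 libraries and at 3 and 4 counts in the control libraries, too low to test.

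CCT8, the theta subunit, lies on the minus strand of chromosome 13 from 192406281 to 192423413 (ENSSSCG00000026761). It had 500.4 and 494 CPM in siYTHDF2 cells and 382 and 432 CPM in control cells, a log2 fold change of 0.29 (SE 0.07, edgeR adjusted p = 0.0231). As for CCT2, the control libraries were further apart than the siYTHDF2 libraries. The call was lost without control library 1 (adjusted p = 0.141) and without siYTHDF2 library 1 (adjusted p = 0.0615).

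CCT3, the gamma subunit, had the smallest change. It lies on the plus strand of chromosome 4 from 93733918 to 93753340 (ENSSSCG00000006487). Its CPM was 530.2 and 513 in siYTHDF2 cells and 430.2 and 465 in control cells, a log2 fold change of 0.22 (SE 0.07, edgeR adjusted p = 0.0458). The groups did not overlap, but the call held without control library 2 (adjusted p = 0.0349) and was lost without any other library, with adjusted p = 0.211 without siYTHDF2 library 1, 0.0828 without siYTHDF2 library 2 and 0.246 without control library 1.

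The 8 genes also moved together between libraries of the same group. siYTHDF2 library 1 was above siYTHDF2 library 2 in all 8, by a median of 0.05 on the log2 scale, and control library 1 was below control library 2 in all 8, by a median of 0.12. The subunits therefore did not give 8 separate measurements of the difference between the groups, since a shift of 1 library moved them all. How many other genes had these orders was not counted, so the joint shift is not shown to be particular to the subunits. siYTHDF2 library 1 also had the smallest total count and the most genes listed at 0, namely 3005 against 2583 to 2676 in the other libraries, and the part of this in the CCT result was not tested. The number of subunits called was 2 without siYTHDF2 library 1, 6 without siYTHDF2 library 2, 3 without control library 1 and 8 without control library 2, and the log2 fold change was positive for all 8 in each of these fits. In those 4 fits 5.56%, 8.56%, 6.2% and 8.82% of all tested genes were called higher. DESeq2 also called all 8, where 9.74% of genes were called higher, as did edgeR with median ratio scaling (8.89%), with no filter on low counts (7.72%) and with no robust shrinkage (8.67%). On the deposited FPKM values, which carry differences in total count between the libraries, limma on log2(FPKM + 1) called 1 of the 8, CCT5, where 3.69% of genes were called higher, and so it did on log2(FPKM + 0.1), where 3.52% were. With quantile normalization it called 4, namely CCT5, CCT6A, CCT7 and CCT8, where 7.56% were. The lowest count of any subunit was 13029, for a counting error of 0.876% of the count if fragments were counted once each. The control libraries of each subunit were further apart than counting error, with an SD of 4.08% to 8.59% of the mean, while the siYTHDF2 libraries of CCT6A and CCT8 differed by about as much as counting error, with SDs of 0.806% and 0.840%.

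**Figure D2:**
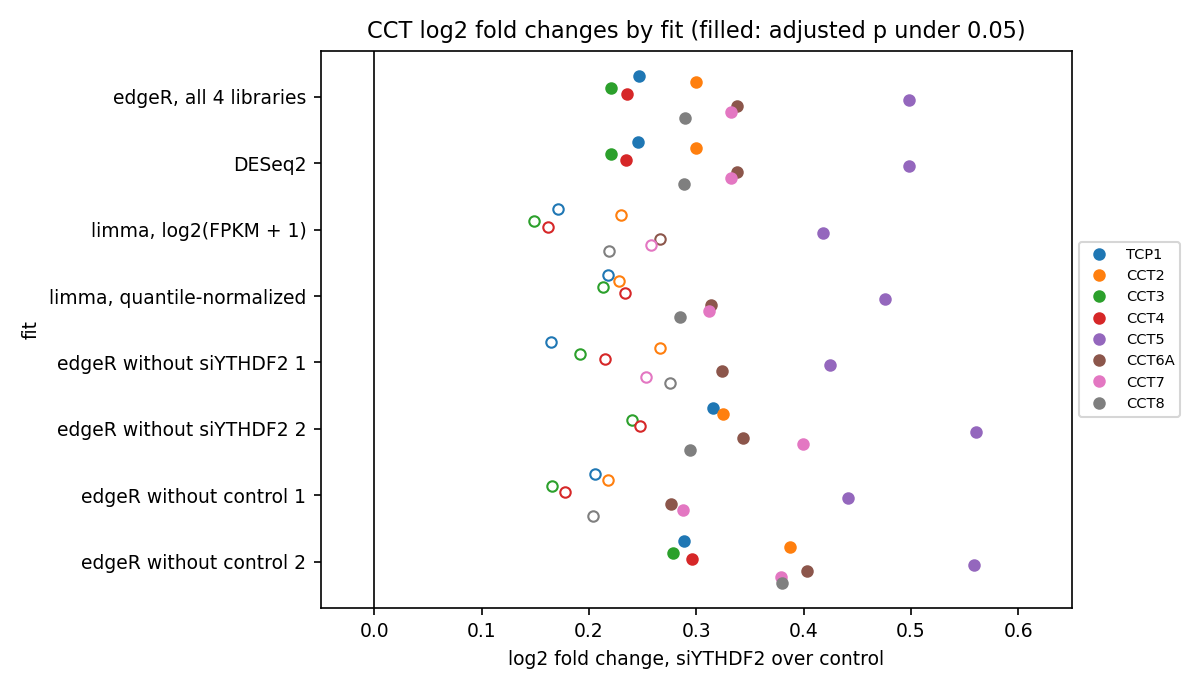
Log2 fold change of each CCT subunit gene, siYTHDF2 over control, in the edgeR fit of all 4 libraries, in DESeq2, in limma on FPKM values and in edgeR fits that leave out 1 library, with filled points at an adjusted p under 0.05. All points lie above 0, CCT5 is the rightmost and filled in every row, and without siYTHDF2 library 1 the filled points are CCT5 and CCT6A.

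Levels per length were compared on the deposited FPKM values. In siYTHDF2 cells the mean levels were 202 FPKM for CCT2, 137 for CCT6A, 127 for CCT7, 120.3 for CCT8, 104 for CCT3, 75.6 for TCP1, 53.5 for CCT5 and 49.7 for CCT4. In control cells they were 172 FPKM for CCT2, 114 for CCT6A, 106 for CCT7, 103 for CCT8, 93.9 for CCT3, 67.1 for TCP1, 44.3 for CCT4 and 39.8 for CCT5. CCT2 was thus highest in both groups, and the last places were exchanged. CCT5 had 52.0 and 54.9 FPKM in the siYTHDF2 libraries, where CCT4 had 46.6 and 52.9, and it had 37.9 and 41.7 FPKM in the control libraries, where CCT4 had 42.2 and 46.4. CCT5 was above CCT4 within each siYTHDF2 library and below it within each control library, although over the siYTHDF2 group their ranges overlap. Among the other neighbours in this order, the ranges of CCT6A and CCT7 and of CCT7 and CCT8 overlapped in siYTHDF2 cells, and in control cells those of CCT6A and CCT7, of CCT7 and CCT8 and of CCT8 and CCT3.

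Taken as a share of the summed FPKM of the 8 subunits, CCT5 held 6.30% and 6.01% in the siYTHDF2 libraries and 5.40% and 5.35% in the control libraries. CCT6A held 15.44% and 16.0% in siYTHDF2 cells and 15.36% and 15.3% in control cells, so that the nearest libraries of the groups were almost equal. CCT3 held 11.9% and 12.1% in siYTHDF2 cells and 12.8% and 12.6% in control cells, and CCT4 held 5.64% and 5.79% in siYTHDF2 cells and 6.01% and 5.96% in control cells. In these 4 genes the groups did not overlap, whereas the shares of TCP1, CCT2, CCT7 and CCT8 overlapped. The shares of a library have a fixed total, so a larger share of CCT5 leaves less for the other subunits. The shares of the 8 subunits are therefore not separate measurements. These shares do not depend on the scaling of the libraries. The smallest two-sided p that an exact permutation test over 2 against 2 libraries allows is 0.333. CCT3, CCT4, CCT5 and CCT6A each had this value, so groups that do not overlap are frequent by chance alone. No background was counted for the 4 of 8 genes. The shares are given as a description, with nothing drawn from that test.

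**Figure D3:**
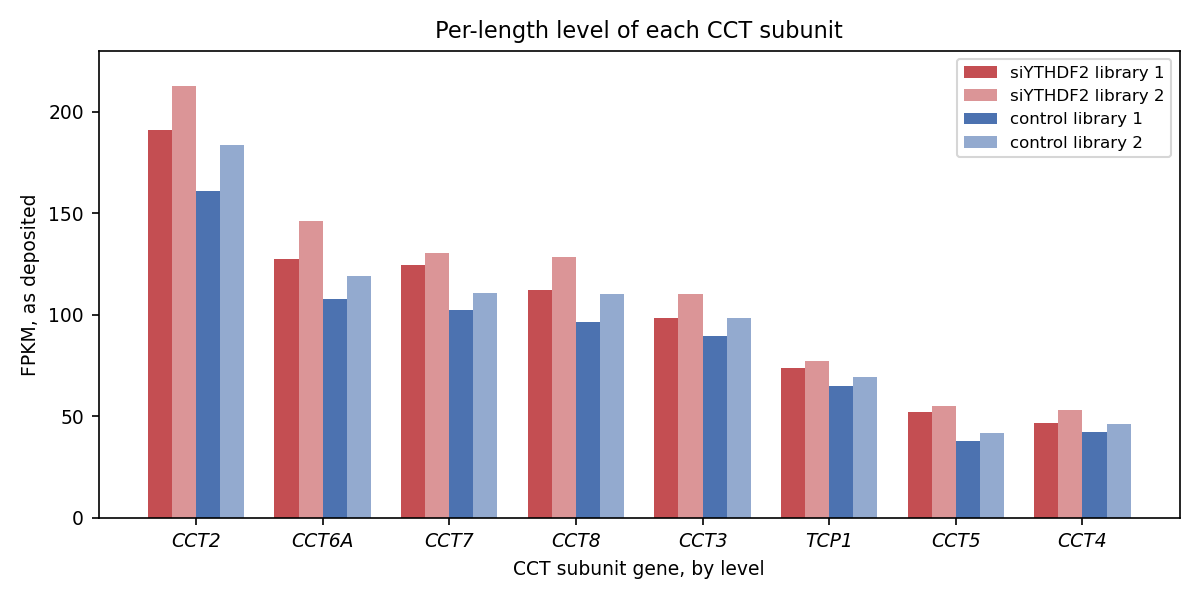
Deposited FPKM of each CCT subunit gene in the 4 libraries, ordered by the mean of the siYTHDF2 libraries, with siYTHDF2 bars in red and control bars in blue. CCT2 is highest in every library, and CCT5 is above CCT4 in both siYTHDF2 libraries and below it in both control libraries.

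The order per length rests on the transcript lengths behind the FPKM values. In siYTHDF2 library 1, 1 FPKM corresponded to 136 counts for CCT2 and to 407 counts for CCT4, so that CCT4 with 399 CPM and CCT2 with 545 CPM were further apart in FPKM than in counts. None of the sources used here says which transcripts entered these lengths.

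Among the neighbours of the subunit genes edgeR called only MRPL18, beside 9.05% of all tested genes called higher and 10.6% lower. The log2 fold changes of the uncalled neighbours had either sign, and no direction is read from them. MRPL18, a mitochondrial ribosomal protein gene on the opposite strand whose start lies 109 bases from that of TCP1, rose to 36.9 ± 2.41 CPM in siYTHDF2 cells, against 27.7 ± 2.94 CPM in control cells (SD, n = 2 each, log2 fold change 0.41, SE 0.11, edgeR adjusted p = 0.0271), and this call was lost without siYTHDF2 library 1 (adjusted p = 0.105) and without control library 1 (adjusted p = 0.123). ACAT2, a cytosolic thiolase, runs against TCP1 and overlaps its 3′ part by 3061 bases in the table. It was at 75.9 ± 2.35 CPM in siYTHDF2 cells and 87.5 ± 6.17 CPM in control cells (SD, n = 2 each, log2 fold change -0.21, SE 0.08, edgeR adjusted p = 0.0931). USP16, a histone deubiquitinase, overlaps the end of CCT8 by 188 bases on the other strand and was not called (log2 fold change 0.21, SE 0.09, adjusted p = 0.149). None of the sources used here says whether reads were counted by strand, so reads in these overlaps cannot be assigned. ATPSCKMT, which starts 420 bases from CCT5 on the other strand, was at 3.64 ± 0.269 CPM in siYTHDF2 cells and 3.15 ± 0.402 CPM in control cells (SD, n = 2 each, log2 fold change 0.21, SE 0.23, edgeR adjusted p = 0.606). PRADC1 next to CCT7 had a log2 fold change of 0.04 (adjusted p = 0.814, -0.03 in limma on FPKM values), and SUMF2 downstream of CCT6A one of -0.31 (adjusted p = 0.113). Small nucleolar RNA genes inside TCP1 and CCT6A were at under 1 CPM and gave no call.

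Of the 6 prefoldin subunits 4 rose, none fell and 2 were not called, with a median log2 fold change of 0.46, where 9.05% of all tested genes were called higher and 10.6% lower. PFDN1 was at 74.6 ± 9.16 CPM in siYTHDF2 cells and 48.8 ± 4.94 CPM in control cells (SD, n = 2 each), and its log2 fold change was 0.61 (SE 0.10, edgeR adjusted p = 0.00392). PFDN6, PFDN2 and PFDN4 rose by 0.56, 0.49 and 0.42 on the log2 scale. All 4 are beta-type subunits, whereas the alpha-type subunits PFDN5 and VBP1 had log2 fold changes of 0.22 (SE 0.09, adjusted p = 0.129) and 0.07 (SE 0.08, adjusted p = 0.607), and a difference between the types was not tested. Without siYTHDF2 library 1 PFDN1 was the 1 prefoldin gene called, where 5.56% of all tested genes were called higher, and without control library 1 PFDN4 was lost (adjusted p = 0.111).

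Of the 4 phosducin-like and thioredoxin-like genes 1 fell and 1 rose, beside 10.6% of all tested genes called lower and 9.05% higher. PDCL, a phosducin-like protein that assists CCT in the folding of G protein beta subunits, fell to 23.5 ± 0.297 CPM in siYTHDF2 cells, against 39.3 ± 0.531 CPM in control cells (SD, n = 2 each, log2 fold change -0.74, SE 0.09, edgeR adjusted p = 0.000778). It was called in all 13 alternative fits. PDCL3, which acts on actin and tubulin folding, was not called (log2 fold change 0.16, SE 0.07, adjusted p = 0.182), nor was TXNDC9 (log2 fold change 0.24, SE 0.08, adjusted p = 0.0529). TXNDC17, a thioredoxin-like reductase, was at the threshold with a log2 fold change of 0.32 (SE 0.10, edgeR adjusted p = 0.0484). That call was lost with median ratio scaling (adjusted p = 0.0509), without siYTHDF2 library 1 (adjusted p = 0.362) and without either control library (adjusted p = 0.143 without library 1 and 0.0540 without library 2). Of the 6 tubulin cofactors 1 rose, beside 9.05% of all tested genes. It was TBCC, which promotes GTP hydrolysis by tubulin, at 26.7 ± 0.835 CPM in siYTHDF2 cells and 15.9 ± 0.542 CPM in control cells (SD, n = 2 each, log2 fold change 0.75, SE 0.11, edgeR adjusted p = 0.00149). The count of cofactors called higher was 4 without control library 2 (8.82% of all genes) and 2 without siYTHDF2 library 2 (8.56%).

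**Figure D4:**
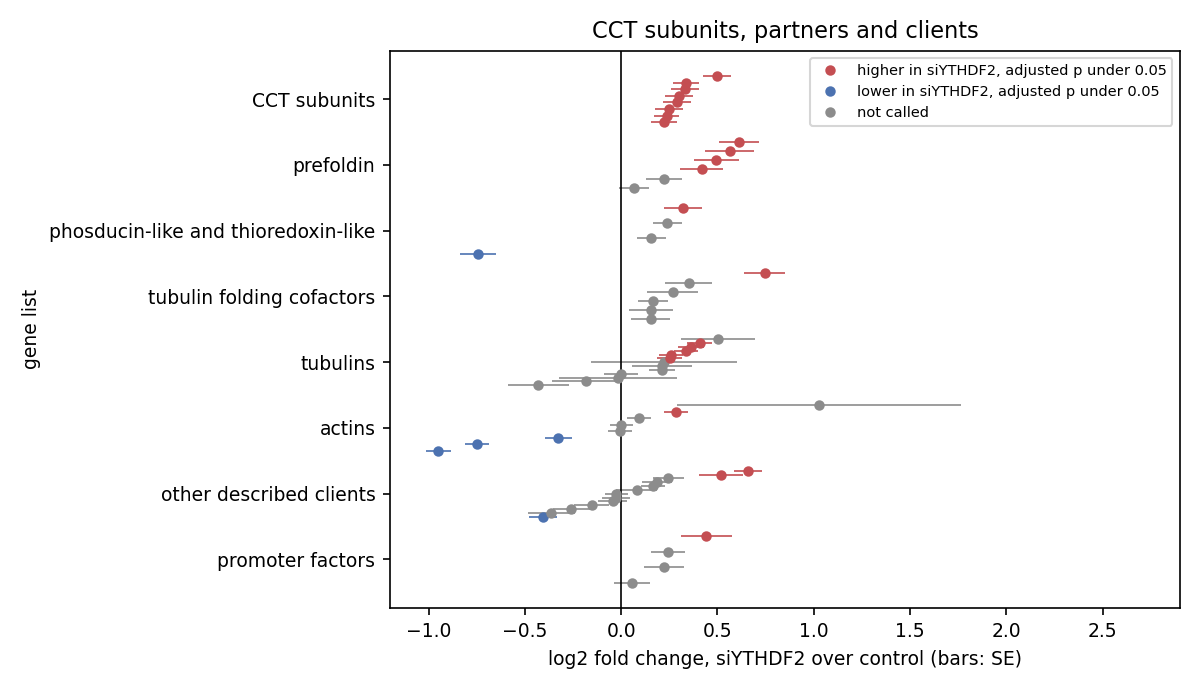
Log2 fold change with its SE for the tested genes of each list, siYTHDF2 over control, in red where called higher, blue where called lower and grey where not called. The 8 CCT subunits and 4 of 6 prefoldin genes are red, 5 of 13 tubulins are red, and the actins include 3 genes called lower and 1 called higher.

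Tubulins and actins are the main clients of CCT. Of 13 tested tubulin genes 5 rose, none fell and 8 were not called, with a median log2 fold change of 0.22, beside 9.05% of all tested genes called higher and 10.6% lower. TUBB, a beta-tubulin of dividing cells, was at 2924 ± 11.4 CPM in siYTHDF2 cells and 2316 ± 29.1 CPM in control cells (SD, n = 2 each, log2 fold change 0.34, SE 0.06, edgeR adjusted p = 0.00526). TUBB2B, TUBB2A, TUBA1B and TUBB6 rose by 0.41, 0.36, 0.26 and 0.25 on the log2 scale. Tubulin genes are alike in sequence, so that reads can be shared among them. The count of tubulins called higher was 3 without siYTHDF2 library 1 (5.56% of all genes) and without siYTHDF2 library 2 (8.56%), and 4 without control library 1 (6.2%) and without control library 2 (8.82%). limma on log2(FPKM + 1) called 0 of 13 higher (3.69% of all genes), and 3 of 13 after quantile normalization (7.56%). At an unadjusted p under 0.05, limma on log2(FPKM + 1) had 4 tubulins higher and 1 lower. The share of all genes at that unadjusted threshold was not counted. In the fits without 1 library TUBA1B was lost without siYTHDF2 library 1 (adjusted p = 0.140), siYTHDF2 library 2 (adjusted p = 0.0562) and control library 1 (adjusted p = 0.0976), and TUBB6 without siYTHDF2 library 1 (adjusted p = 0.0506), siYTHDF2 library 2 (adjusted p = 0.123) and control library 2 (adjusted p = 0.105).

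Of 8 tested actin and actin-related genes 3 fell, 1 rose and 4 were not called, with a median log2 fold change of -0.0035, beside 10.6% of all tested genes called lower and 9.05% higher. ACTA2, the smooth muscle alpha-actin, fell to 6463 ± 249 CPM in siYTHDF2 cells, against 12474 ± 462 CPM in control cells, and ACTG2, the smooth muscle gamma-actin, to 198 ± 3.38 CPM in siYTHDF2 cells, against 333 ± 0.0217 CPM in control cells (SD, n = 2 each). Their log2 fold changes were -0.95 and -0.75 (edgeR adjusted p = 3.1e-05 and 7.34e-05). ACTA2 is also on the stroma marker list. Among the cytoplasmic actins, ACTB was at 3791 ± 187 CPM in siYTHDF2 cells and 4753 ± 301 CPM in control cells (SD, n = 2 each, log2 fold change -0.33, SE 0.07, edgeR adjusted p = 0.0128), while ACTG1 was at 8888 ± 207 CPM in siYTHDF2 cells and 8879 ± 5.24 CPM in control cells (SD, n = 2 each, log2 fold change 0.0015, SE 0.06, edgeR adjusted p = 0.992, and -0.070 in limma on FPKM values). ACTG1 was chosen after its values were seen. The ACTB call was lost without siYTHDF2 library 1 (adjusted p = 0.0780) and without control library 1 (adjusted p = 0.0612). ACTR1A, a dynactin subunit, rose by 0.28 on that scale (SE 0.06, edgeR adjusted p = 0.0118), which limma on log2(FPKM + 1) did not call (adjusted p = 0.362).

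Of 13 other described clients 2 rose, 1 fell and 10 were not called, with a median log2 fold change of -0.03. With 9.05% of all tested genes called higher and 10.6% lower, these counts are near the background. PLK1, a mitotic kinase, had a log2 fold change of 0.66 (SE 0.07, edgeR adjusted p = 0.000462), and WRAP53, a WD-repeat protein of telomerase, one of 0.52 (SE 0.11, adjusted p = 0.0126). GNB4, a G protein beta subunit, fell, with a change of -0.41 (SE 0.07, edgeR adjusted p = 0.00477). CDC20, the WD-repeat activator of the anaphase-promoting complex, was not called (log2 fold change 0.19, SE 0.08, adjusted p = 0.124). The number called in either direction was larger in some of the fits that left out 1 library.

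Of 4 factors described to act on CCT promoters in mammals, 1 was called higher, beside 9.05% of all tested genes. It was ZNF143, at 25.7 ± 1.45 CPM in siYTHDF2 cells and 18.9 ± 3.27 CPM in control cells (SD, n = 2 each, log2 fold change 0.44, SE 0.13, edgeR adjusted p = 0.0453). The call was lost without siYTHDF2 library 1 (adjusted p = 0.119) and without control library 1 (adjusted p = 0.205). The heat shock factors HSF1 and HSF2 had log2 fold changes of 0.22 (adjusted p = 0.163) and 0.24 (adjusted p = 0.0919), and MYC one of 0.06 (adjusted p = 0.748). The mitochondrial chaperonin HSPD1, a relative of CCT that forms a ring of identical subunits, was at 515 ± 14.5 CPM in siYTHDF2 cells and 454 ± 30.1 CPM in control cells (SD, n = 2 each, log2 fold change 0.18, SE 0.07, edgeR adjusted p = 0.0959). For its lid HSPE1 the log2 fold change was 0.07 (SE 0.12, edgeR adjusted p = 0.760), which turned to -0.11 without siYTHDF2 library 1 and to -0.07 without control library 1. The chaperonin-like genes MKKS, BBS10 and BBS12 were tested with no call in edgeR, nor one at an unadjusted p under 0.05 or in DESeq2.

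The genes nearest to the mean CCT pattern were sought among 8351 other genes with a symbol and at least 10 CPM, by the root mean square distance of the log2 deviations over the 4 libraries. KATNA1, the catalytic subunit of the microtubule-severing protein katanin, was nearest at a distance of 0.0085. It had 37.3 and 35.4 CPM in siYTHDF2 cells and 27.9 and 30.9 CPM in control cells. DDX24, an RNA helicase, and RBBP9, a serine hydrolase, followed at 0.011 each. edgeR called DDX24 higher (adjusted p = 0.0187), but not KATNA1 (adjusted p = 0.0569) or RBBP9 (adjusted p = 0.0928). Among the subunits themselves, CCT2 was closest to the mean pattern at 0.017, with 15 of the other genes nearer, and CCT5 farthest at 0.097, with 1644 nearer.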

How the data were processed

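RNA from pig granulosa cells was sequenced in 2 siYTHDF2 and 2 control libraries. The authors deposited 1 table with counts and FPKM per gene and library, per the file headers. Bowtie 0.12.2 stands in the submitters' processing notes beside a mouse build, which goes against the pig identifiers, so that the counting method, strand, annotation and build count as not given in the sources at hand. The deposited FPKM were hardly scaled to the total count of a library. The counts per FPKM of a typical gene in siYTHDF2 library 1 were 1.004 times the mean of the libraries. The total count of that library was 0.901 times the mean, so fold changes from unscaled FPKM carry differences in total.

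Counts were tested with edgeR 4.0.16 in R 4.3.3 (filterByExpr, TMM, quasi-likelihood F test, robust, with group as the only term), adjusted by Benjamini-Hochberg over 15552 genes at 0.05. CPM are TMM-scaled, and the SE was derived from the F statistic. Alternatives used DESeq2 1.42.0, median ratio scaling, no filter, no robust shrinkage, limma 3.58.1 on log2(FPKM + 1), log2(FPKM + 0.1) and quantile-normalized values, the replicate number as a block, and each library left out, which leaves a lone sample assumed to vary like the other group. On counts simulated for these 15552 genes, the test recovered 12% of genes changed 1.25-fold and 66% changed 1.5-fold, with 4 false calls among 15352 unchanged genes. The changed genes were drawn over a wide range of levels, and each gene varied independently, without shifts shared by the genes of a library. These rates therefore do not carry over to the subunits, nor to the spread between separate cultures.

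The named genes are the 8 subunits, YTHDF2, ACTB, TUBB, PDCL3, CDC20, up to 6 called genes per list, genes overlapping a subunit or starting within 2000 bases of it, and the 3 genes nearest in pattern. HSPD1, HSPE1, PFDN5, VBP1, TXNDC9, HSF1, HSF2, MYC, CCT6B, CCT8L2, MKKS, BBS10, BBS12 and single markers stand outside that rule and complete their lists. Members and lists were chosen with earlier results of these data known. TUBA1C, TUBB4B, VHL, CYP17A1, INSL3, CDH5, CD3E, ZP3, DAZL, PDE6B and CRX were not analysed here, nor were promoter or protein sequences. Of the other marker lists, edgeR called 1 of 3 tested endothelial genes higher and 1 of 11 granulosa genes lower, beside 9.05% of all tested genes higher and 10.6% lower. The endothelial gene was VWF, at 24 and 30 counts in the siYTHDF2 libraries and 0 in both control libraries. The granulosa gene was INHBB, and DESeq2 also called GJA1 lower (adjusted p = 0.0491) and AMH higher (adjusted p = 0.0477). The leukocyte, oocyte and retina genes had no call in edgeR or DESeq2, with CD14 at an unadjusted edgeR p of 0.0277.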

Additional observations from a re-analysis of the deposited data

How the results depend on the processing

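All 8 subunits kept a positive log2 fold change in the 13 alternatives. They were all called with DESeq2, median ratio scaling, no filter and no robust shrinkage. limma on log2(FPKM + 1) and on log2(FPKM + 0.1) called 1 subunit, and 574 and 548 genes higher over the table, against 1408. The log2 fold changes lost there were 0.17 for TCP1, 0.23 for CCT2, 0.15 for CCT3, 0.16 for CCT4, 0.27 for CCT6A, 0.26 for CCT7 and 0.22 for CCT8 with either pseudocount. Quantile normalization called 4 subunits, without TCP1 (0.22), CCT2 (0.23), CCT3 (0.21) and CCT4 (0.23). The cause was not tested.

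With replicate numbers as a block 3 subunits were called, and TCP1 (0.25), CCT2 (0.30), CCT3 (0.22), CCT4 (0.24) and CCT8 (0.29) were not, while 1020 genes were called higher and ACTR1A lost its call (adjusted p = 0.0503). The labels do not say that the numbers pair libraries, and same-numbered libraries deviated with a correlation across genes of -0.05, or -0.26 over 9092 genes of at least 10 CPM. Crossing the pairs, a fit added after the data were seen, called 8 subunits, and 1946 genes higher over the table.

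Leaving out 1 library gave 2 to 8 subunits called, 864 to 1372 genes called higher and a median subunit log2 fold change of 0.21 to 0.38. By subunit the log2 fold change was 0.16 to 0.32 for TCP1, 0.22 to 0.39 for CCT2, 0.17 to 0.28 for CCT3, 0.18 to 0.30 for CCT4, 0.25 to 0.40 for CCT7 and 0.20 to 0.38 for CCT8. Signs turned for uncalled genes near 0. ACTG1 was at -0.0023 with no filter, -0.070 in limma on FPKM and between -0.026 and 0.019 with a library left out. HSPE1 was at -0.0027 and -0.0026 in limma on FPKM, and -0.11 to -0.07 without siYTHDF2 library 1 or control library 1. VBP1 was at -0.0034 and -0.0035, and PRADC1 at -0.025 and -0.029, in limma on FPKM.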
